A study of Mus musculus with 30 samples.

Results

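Wdfy1, Lrmda, Gm15446 and Tmem181b-ps are 4 mouse genes on 4 different chromosomes, none of them the chromosome that carries Mertk. They were taken from the count tables by their symbols, and each symbol named 1 row of the 55573 genes listed in each tissue. They were chosen by their measured normalized counts, because the Mertk-/-V3 line differed from wild type at them in retinal pigment epithelium (RPE) and in bone marrow-derived macrophages (BMDMs) alike, so their values in Mertk-/-V3 and B6 WT libraries are described here without a test. The choice was a list of symbols with no threshold, so genes just outside it cannot be named by a rule. The list does not hold every gene whose V3 libraries stood apart in both tissues. All 4 genes passed the minimum of 10 normalized counts, as a mean over the libraries of a tissue, in RPE and in BMDMs.

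RNA was sequenced from the RPE of mice at P25 (6 libraries each of B6 WT and Mertk-/-V1, 3 each of Mertk-/-V2 and Mertk-/-V3) and from BMDMs of adult mice (3 of each genotype). All 4 genotypes are labelled as strain C57BL/6J. Mertk-/-V1 (V1) mice lack exon 17 of Mertk and descend from 129P2 embryonic stem cells crossed onto C57BL/6J. Mertk-/-V2 (V2) mice lack exon 18 after Cre recombination of a floxed allele made in C57BL/6NJ embryos, using Rosa26 ERT2Cre and 4-hydroxytamoxifen, with Cre bred out afterwards. Mertk-/-V3 (V3) mice lack exons 3 and 4 after CRISPR/Cas9 editing of C57BL/6NJ eggs, and B6 WT mice carry an intact gene. By the SNP analysis of the study, V2 and V3 genomes are part C57BL/6J and part C57BL/6NJ, with the larger C57BL/6NJ share in V3. The 3 deletions are present in every cell of the animal. Each knockout genotype is 1 line, so the Mertk allele and whatever else a line carries cannot be told apart. RPE RNA was released from posterior eyecups, and BMDMs were grown in medium conditioned by L929 cells.

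Wdfy1 encodes an early endosomal protein with WD40 repeats and a FYVE domain, a fold that binds the membrane lipid PI3P, and it acts as an adaptor in signalling from the innate immune receptors TLR3 and TLR4 through TRIF. Lrmda encodes a leucine-rich repeat protein of melanocyte differentiation that has been linked to oculocutaneous albinism in people, a disorder of pigment made in organelles that RPE cells also form. Gm15446 is annotated as protein coding in GENCODE and as a long non-coding RNA in RefSeq, and it is a near copy of the zinc finger gene Zfp932. Tmem181b-ps is a transcribed pseudogene of the Tmem181 family of multi-pass membrane proteins, in a stretch of chromosome 17 that holds several near-identical gene copies. MERTK, the product of the targeted gene, is a receptor tyrosine kinase with which RPE cells and macrophages take up shed outer segments and dead cells.

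Positions are those of GRCm38. Wdfy1 (ENSMUSG00000073643) lies on chromosome 1 from 79702262 to 79776143 on the minus strand. Lrmda (ENSMUSG00000063458) spans 1036 kb of chromosome 14, from 22019712 to 23056085 on the plus strand. Gm15446 (ENSMUSG00000090015) lies on chromosome 5 from 109923400 to 109943936 on the plus strand. Tmem181b-ps (ENSMUSG00000096780) lies on chromosome 17 from 6438524 to 6467022 on the minus strand.

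Copies that share sequence decide how far a read count can be given to 1 gene, so the transcripts of the 4 genes were aligned with those of all other genes. Gm15446 matched Zfp932 at 97.4% identity over 1765 nt, with a longest identical run of 264 nt. Among aligned stretches of 90 nt without gaps, inside 1 exon and the coding sequence of both genes, the stretch that differs most is shown. It comes from exon 4 of each gene, on the plus strand, with the 24 differing positions in capitals.
Gm15446 (chr5:109942188-109942277): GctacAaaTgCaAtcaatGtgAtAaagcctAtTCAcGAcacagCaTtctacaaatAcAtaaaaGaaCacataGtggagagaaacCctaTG
Zfp932 (chr5:110008661-110008750): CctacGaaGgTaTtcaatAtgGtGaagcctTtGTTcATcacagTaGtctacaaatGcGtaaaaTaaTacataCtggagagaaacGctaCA
Tmem181b-ps matched Tmem181a at 98.8% identity over 1680 nt with a longest identical run of 501 nt, Tmem181c-ps at 99.6% over 759 nt, and Dynlt1a on the opposite strand at 99.1% over 321 nt. Stretches of 90 nt were again limited to those without gaps, inside 1 exon of both genes and the coding sequence of Tmem181a. The stretch among these at which Tmem181b-ps differs most from Tmem181a has 3 differing positions, in capitals. It lies in exon 1 of the pseudogene (minus strand) and in exon 2 of Tmem181a (plus strand).
Tmem181b-ps (chr17:6466923-6467012): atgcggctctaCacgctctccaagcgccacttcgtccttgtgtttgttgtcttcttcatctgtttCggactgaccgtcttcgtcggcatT
Tmem181a (chr17:6280608-6280697): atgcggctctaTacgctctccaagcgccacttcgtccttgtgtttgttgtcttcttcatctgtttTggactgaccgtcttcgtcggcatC
Reads over such stretches differ between the copies, while the long identical runs in both pairs give reads that either copy could have produced. How the counting treated such reads is not given in the sources used here, so values of Gm15446, Tmem181b-ps and their copies are uncertain to that extent. Wdfy1 and Lrmda had 0 near-identical transcripts at 97% identity over 300 nt or more.

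Lrmda and Gm15446, the 2 members that were lower in V3, are the 2 of the 4 with an entry in the RefSeq promoter table (GRCm38.p6). The 250 bases before each start are shown because both genes moved in the same direction, with CCAAT in capitals where it was found, on either strand.
Lrmda (chr14:22019462-22019711, plus strand): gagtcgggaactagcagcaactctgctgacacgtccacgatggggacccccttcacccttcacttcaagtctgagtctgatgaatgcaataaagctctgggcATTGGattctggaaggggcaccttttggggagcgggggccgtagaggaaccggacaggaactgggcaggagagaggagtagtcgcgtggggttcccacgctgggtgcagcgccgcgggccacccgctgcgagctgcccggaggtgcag
Gm15446 (chr5:109933313-109933562, plus strand): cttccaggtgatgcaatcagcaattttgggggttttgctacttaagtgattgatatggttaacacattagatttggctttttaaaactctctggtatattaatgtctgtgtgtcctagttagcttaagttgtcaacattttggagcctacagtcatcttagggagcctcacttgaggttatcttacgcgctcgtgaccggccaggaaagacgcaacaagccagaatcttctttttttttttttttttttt
The Lrmda sequence is 62.4% G and C and the Gm15446 sequence 38.8%, against a median of 52.4% over 32851 promoters. On both strands, CCAAT was found once in Lrmda (as ATTGG, starting 148 bases before the start) and not in Gm15446, while the E-box CACGTG, the GC box GGGCGG and the TATA box TATAAA were found in neither. CCAAT occurs in 33.8% of all promoters of this length, GGGCGG in 32.7%, TATAAA in 12.4% and CACGTG in 6.02%, so the match in Lrmda is a description and not a site. The RefSeq start of Gm15446 lies inside the GENCODE span of the gene.

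Between 14137666 and 34124049 reads fell on genes in an RPE library (median 22495677) and between 16629659 and 25653814 in a BMDM library (median 20383090), and 0 pairs of libraries were identical. Mertk was counted at 2638 to 3924 normalized counts in B6 WT RPE, at 919 to 1717 in V1 and at 444 to 1106 in V3, and at 2414 to 2881, 847 to 883 and 651 to 723 in BMDMs. In the libraries labelled V2 it was 3565 to 5311 in RPE and 3532 to 3589 in BMDMs, not lower than in B6 WT. Removal of 1 exon need not lower the count of a whole gene, so this count does not check the V2 label. Summed RPE markers (Rpe65, Rlbp1, Lrat, Best1, Rgr and Ttr) were at 5.71 to 26.4 in BMDMs, where 3 of the 6 were at 0 in every library. In RPE they were at 451674 to 815413 in B6 WT, 176432 to 587690 in V1, 569504 to 768390 in V2 and 258915 to 704211 in V3. The median difference over the 6 RPE markers was -0.41 for V3 against B6 WT and -0.74 for V1 against V2 on the log2 scale, with 0 of 6 called in either comparison. The part of this in the RPE values of the 4 genes was not tested. Summed macrophage markers (Adgre1, Csf1r, Cd68, Itgam, Mrc1 and Lyz2) were at 311326 to 355707 in BMDMs and 5297 to 12584 in RPE. Rod photoreceptor transcripts were present in the RPE libraries and their sum overlapped between genotypes, at 28069 to 299493 in B6 WT and 49426 to 362758 in V3. The 3 melanocyte markers (Sox10, Kit and Mlana) summed to 7790 to 9730 in B6 WT RPE and 5164 to 10516 in V3 RPE. In bulk RNA, fewer cells of a type and less RNA per cell cannot be told apart. B6 WT and V1 RPE come as replicates 1 to 3 and 4 to 6, which differed from each other, whereas V2 and V3 RPE have only replicates 1 to 3, so differences of the members from B6 WT in RPE are also given against each set. The fits have no term for these sets unless stated, and the number of genes called in RPE depends on that.

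Wdfy1 was higher in every V3 library than in any other library, in RPE and in BMDMs. In RPE the 6 B6 WT libraries ran from 307 to 448 normalized counts (median 345) and the 6 V1 libraries from 295 to 584 (median 415). The V2 libraries held 384, 460.0 and 351, and the V3 libraries 1776, 1637 and 1880.2. Every V3 library lay far above all 15 others, while the B6 WT, V1 and V2 ranges overlapped. V3 RPE averaged 1764 ± 122 (SD, n = 3) against 365 ± 63.1 in B6 WT (SD, n = 6), 4.84 times as much, or 2.29 higher (SE 0.19) on the log2(normalized count + 1) scale used for all differences. In BMDMs the B6 WT libraries held 174, 195 and 200.3, the V1 libraries 244, 269.9 and 246, the V2 libraries 263, 199.7 and 245, and the V3 libraries 1146, 1239.8 and 1151. The V3 libraries again stood apart from the other 9, with a mean of 1179 ± 53.0 against 190 ± 13.7 (SD, n = 3 each), 6.21 times as much (log2 difference 2.63, SE 0.10). All 3 V1 BMDM libraries were also above all 3 of B6 WT, by 0.42 (SE 0.10), and the V2 libraries overlapped with B6 WT at a difference of 0.31 (SE 0.10). V1 and B6 WT BMDMs were likewise without overlap, with V1 lower, at other genes named below, such as Strap, Mrpl44 and Dynlt1a. The share of all genes without such overlap was not counted. In RPE the difference of V3 from B6 WT was 2.49 with only the first 3 B6 WT replicates as reference and 2.09 with replicates 4 to 6.

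Lrmda was lower in every V3 library than in any other library of the same tissue. B6 WT RPE ran from 169 to 312 normalized counts (median 241) and V1 RPE from 118 to 274 (median 226). The V2 libraries held 338, 257 and 233, and the V3 libraries 46.9, 72.3 and 84.8. The highest V3 library was below the lowest of the 15 others, V1 replicate 6 at 118, and V1 replicates 5 and 6 were the next lowest. The mean was 68.0 ± 19.4 in V3 (SD, n = 3) and 242 ± 51.1 in B6 WT (SD, n = 6), so B6 WT held 3.56 times as much (log2 difference -1.83, SE 0.29; -2.03 from the first set of B6 WT replicates and -1.63 from the second). In BMDMs the B6 WT libraries held 171, 174 and 147, the V1 libraries 147, 131 and 142, the V2 libraries 152, 168 and 176, and the V3 libraries 27.3, 16.0 and 25.7. All 3 V3 libraries were far below the 9 others, the lowest of which was V1 replicate 2 at 131. B6 WT BMDMs held 7.12 times as much as V3 (164 ± 14.9 against 23.0 ± 6.12, SD, n = 3 each; log2 difference -2.81, SE 0.18). The difference of V1 from B6 WT was -0.29 (SE 0.24) in RPE and -0.22 (SE 0.18) in BMDMs, and that of V2 was 0.20 (SE 0.29) and 0.01 (SE 0.18), with overlapping ranges in each case.

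Gm15446 was close to absent in V3. In RPE it ran from 239 to 421 normalized counts in B6 WT (median 270.0) and from 196 to 584 in V1 (median 317), and the V2 libraries held 296, 291 and 256. The V3 libraries held 1.12, 1.247 and 3.08, which are 1, 1 and 2 reads, against 1415 reads over the 6 B6 WT libraries. Scaled for library size, V3 RPE had 0.590% of the B6 WT level (exact 95% counting interval 0.160 to 1.51%, which covers counting error only). In BMDMs the B6 WT libraries held 52.6, 67.7 and 59.6, the V1 libraries 51.7, 52.0 and 68.6, and the V2 libraries 53.4, 42.4 and 40.8. The V3 libraries held 14.2, 1.07 and 2.41, or 13, 1 and 3 reads. V3 replicate 1 thus held most of the V3 reads, and all 3 V3 libraries were below the 9 others. The V3 level was 9.15% of B6 WT (5.23 to 15.0%, from 17 and 208 reads), and 3.05% (0.825 to 7.94%, from 4 reads) without V3 replicate 1. On the log2 scale the differences were -6.76 (SE 0.31; -6.54 from the first and -6.98 from the second set of B6 WT replicates) in RPE and -3.67 (SE 0.51) in BMDMs, or -4.51 without V3 replicate 1, and at such low counts they depend on the pseudocount of 1. V1 differed from B6 WT by 0.20 (SE 0.25) in RPE and -0.07 (SE 0.51) in BMDMs, and V2 by -0.05 (SE 0.31) and -0.39 (SE 0.51).

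Tmem181b-ps was higher in V3 than in B6 WT in both tissues, and its level also differed among the libraries of the other knockout lines. In RPE it ran from 407 to 643 normalized counts in B6 WT (median 546) and from 430.3 to 767 in V1 (median 622). The V2 libraries held 1126, 1125 and 434, and the V3 libraries 1736, 1925 and 1695. V2 replicates 1 and 2 lay between V3 and every B6 WT and V1 library, whereas V2 replicate 3 lay inside the B6 WT range. The V3 mean was 1785 ± 123 (SD, n = 3) and that of B6 WT 525.5 ± 87.7 (SD, n = 6), a ratio of 3.40 (log2 difference 1.78, SE 0.26; 1.79 and 1.76 from the first and the second set of B6 WT replicates). In BMDMs the B6 WT libraries held 110.2, 102 and 106, the V1 libraries 173, 170.0 and 107, the V2 libraries 163, 159 and 277, and the V3 libraries 261, 327 and 335. Here V2 replicate 3 lay within the V3 range, so V2 and V3 overlapped, and V1 replicate 3 lay within the B6 WT range while the other two V1 libraries were above it. V3 BMDMs averaged 308 ± 40.7 against 106 ± 4.15 in B6 WT (SD, n = 3 each), 2.90 times as much (log2 difference 1.52, SE 0.21). The V2 difference from B6 WT was 0.66 (SE 0.26) in RPE and 0.86 (SE 0.21) in BMDMs, and that of V1 was 0.19 (SE 0.21) and 0.46 (SE 0.21).

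**Figure D1:**
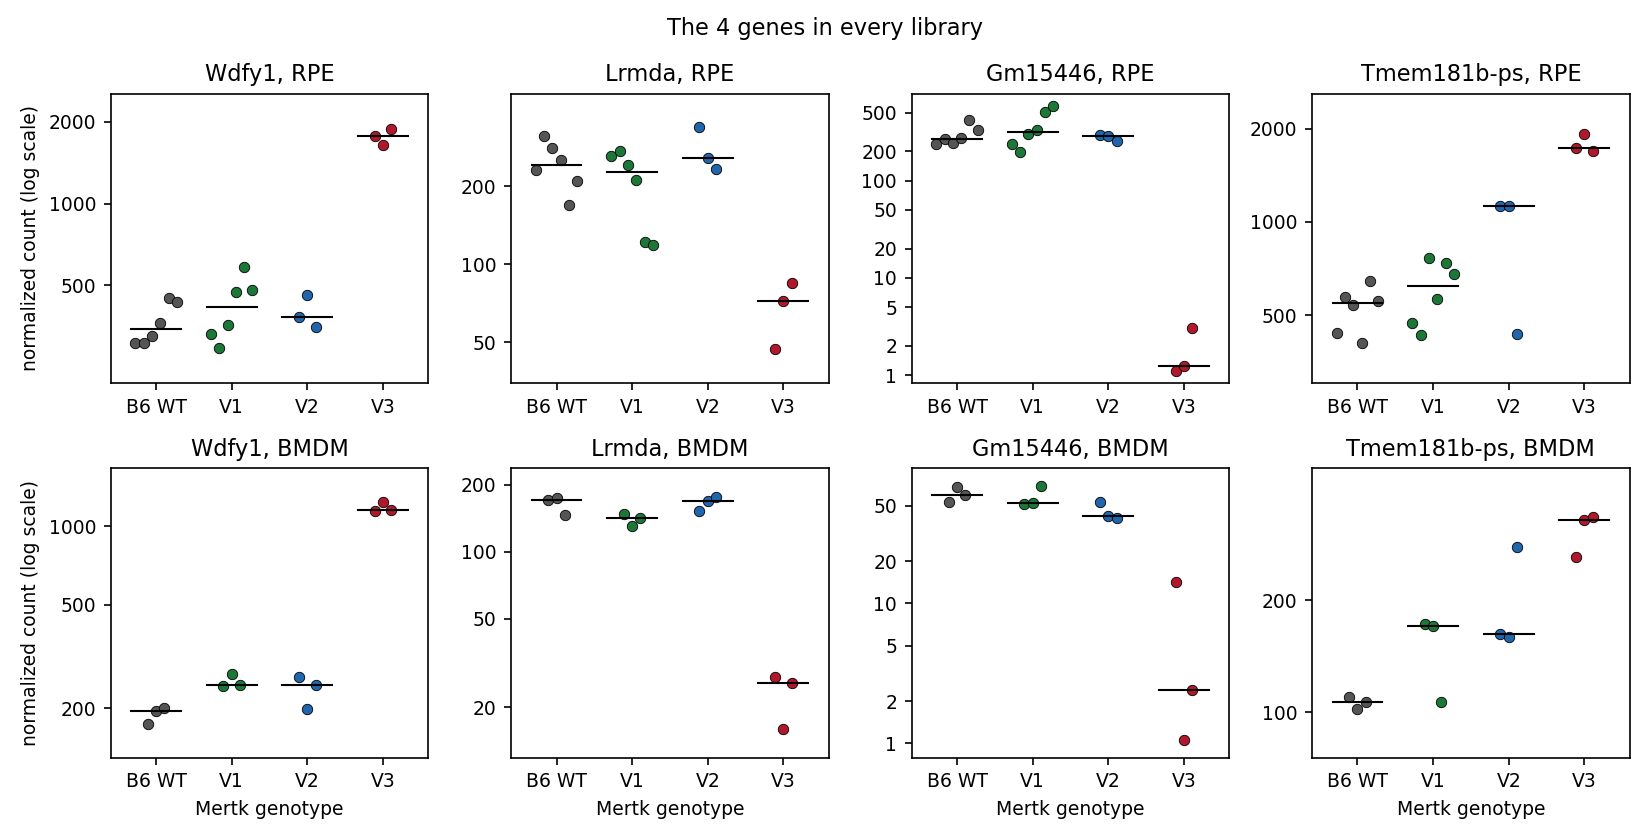
Normalized counts (log axis) of Wdfy1, Lrmda, Gm15446 and Tmem181b-ps in each RPE library (upper row) and each BMDM library (lower row) by Mertk genotype, 1 point a library with a bar at the group median. V3 libraries stand apart from all others except for Tmem181b-ps in BMDMs, where V2 replicate 3 (277) exceeds V3 replicate 1 (261).

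**Figure D2:**
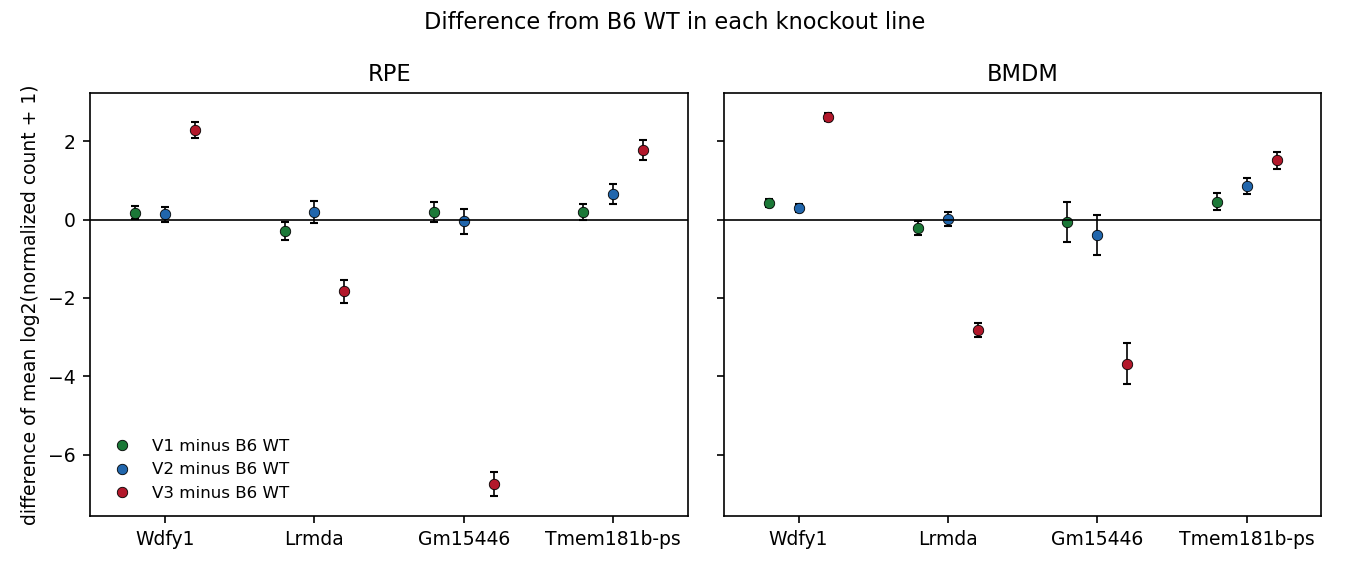
Differences of V1, V2 and V3 from B6 WT for the 4 genes in RPE and BMDMs, in mean log2(normalized count + 1), with bars of 1 SE from the model of the tissue. V3 differences run from -6.76 to 2.29 in RPE and from -3.67 to 2.63 in BMDMs, and have the same sign in both tissues for each gene.

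Levels were compared between genes and tissues per length, as RPKM computed from the recovered reads and the exon length, without a test because the tables were normalized separately. In B6 WT RPE, Tmem181b-ps had 4.84 ± 1.04, Lrmda 3.39 ± 0.58, Gm15446 3.04 ± 0.93 and Wdfy1 2.18 ± 0.52 (SD, n = 6). Lrmda and Gm15446, and Gm15446 and Wdfy1, differed by less than the larger SD of the pair. In B6 WT BMDMs the order was Lrmda (2.96 ± 0.31), Wdfy1 (1.43 ± 0.10), Tmem181b-ps (1.24 ± 0.039) and Gm15446 (0.778 ± 0.106; SD, n = 3). The V3 line had the order Tmem181b-ps (17.5 ± 1.66), Wdfy1 (11.1 ± 0.48), Lrmda (1.02 ± 0.27) and Gm15446 (0.0194 ± 0.0110) in RPE, and Wdfy1 (8.78 ± 0.33), Tmem181b-ps (3.55 ± 0.46), Lrmda (0.410 ± 0.111) and Gm15446 (0.0756 ± 0.0929) in BMDMs. In V3 each neighbouring pair in these orders differed by more than the larger SD of the pair.

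The V1 and V2 lines were compared with each other as well. The 4 genes were listed for a difference in V3 with the values of all 4 genotypes known, so small differences between V1 and V2 were favoured by the choice, and they are given as a description. With limma over all 18832 genes in RPE and all 13420 in BMDMs, a gene was called at an adjusted p under 0.05 (Benjamini-Hochberg) with a difference of at least 2.38-fold in either direction. Of the 4 genes 0 were called between V1 and V2 in either tissue by limma, edgeR or DESeq2, and 0 had an unadjusted p under 0.05 in limma, where 0.0637% of all genes were called in RPE and 0.134% in BMDMs. For Wdfy1 the difference of V1 from V2 was 0.05 in RPE (95% interval -0.36 to 0.45) and 0.11 in BMDMs (-0.10 to 0.33). For Lrmda it was -0.49 in RPE (-1.10 to 0.12) and -0.24 in BMDMs (-0.62 to 0.14), where the 3 V1 libraries were below the 3 of V2. The share of all genes at which V1 and V2 BMDMs were apart in this way was not counted. The wider intervals of Gm15446 were -0.40 to 0.91 in RPE around 0.25 and -0.78 to 1.43 in BMDMs around 0.33. The BMDM interval takes its spread from all 4 genotypes, the few reads of V3 among them, and was -0.14 to 0.79 in a fit of V1 and V2 alone. For Tmem181b-ps V1 was lower by 0.46 in RPE (-1.02 to 0.09) and by 0.40 in BMDMs (-0.86 to 0.06). Single libraries moved these differences, to -0.92 without V2 replicate 3 and -0.24 without V2 replicate 1 or 2 in RPE, and to -0.14 without V2 replicate 3 and -0.17 without V1 replicate 3 in BMDMs. These intervals do not show that V1 and V2 are alike.

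**Figure D3:**
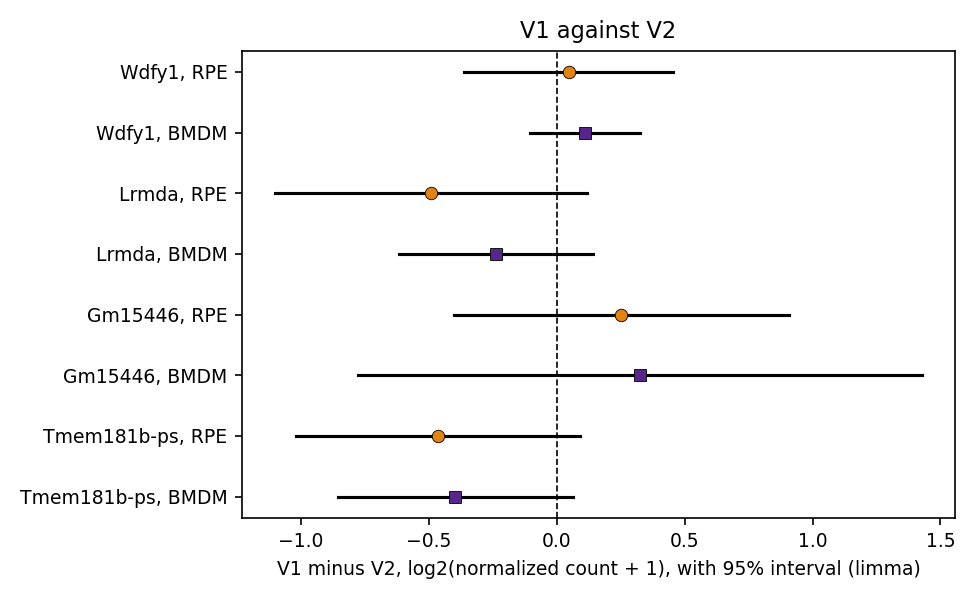
V1 minus V2 in log2(normalized count + 1) for the 4 genes in RPE (circles) and BMDMs (squares), with the 95% interval from limma. All 8 intervals include 0, and the widest, of Gm15446 in BMDMs, runs from -0.78 to 1.43.

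Genes beside the 4 members were examined next, since they were not part of the choice. GENCODE annotates 195 genes within 1 Mb of a member, of which 82 passed the filter in RPE and 67 in BMDMs. Between V3 and B6 WT, 1 of the 82 was called in RPE, against 0.0637% of all genes tested, and 1 of the 67 in BMDMs, against 0.156%. At an unadjusted p under 0.05 there were 13 of 82 in RPE and 12 of 67 in BMDMs, beside 2083 of 18832 and 2130 of 13420 among all genes. The median difference near each member was between -0.02 and 0.10 in RPE and between -0.10 and -0.001 in BMDMs. Between V1 and V2 0 neighbours were called in either tissue by limma, edgeR or DESeq2, with 7 of 82 and 3 of 67 at an unadjusted p under 0.05, beside 1831 of 18832 and 1002 of 13420 among all genes. The 2 called genes lie next to Gm15446 and next to Tmem181b-ps. Around Wdfy1 (12 genes tested in RPE and 10 in BMDMs) and Lrmda (11 and 8) no neighbour was called.

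1010001B22Rik, a long intergenic non-coding RNA on chromosome 5 from 109995511 to 109996398, was the neighbour called in RPE. It lies 51.6 kb beyond Gm15446, in the gap between that gene and Zfp932, and is the nearest tested gene on that side. Within this gap it lies directly beside the start of Zfp932 (109996521, plus strand), on the minus strand. B6 WT RPE held 7.86 to 36.9 normalized counts (median 25.1), V1 RPE 12.4 to 32.4 (median 22.9), and the V2 libraries 29.8, 27.2 and 29.2. The 3 V3 libraries held 0 reads. V3 was at least 19.0-fold lower than the observed B6 WT level when 3 reads over the group are taken as the limit that a count of 0 allows (adjusted p = 1.55e-05 from limma). This limit fell to 11.8-fold without V3 replicate 1, 12.5-fold without replicate 2 and 13.8-fold without replicate 3, since fewer libraries hold the 3 reads. It leaves out counting error in the 119 B6 WT reads. The exact 95% counting interval, which includes that error, ran up to 6.57% of the B6 WT level. The gene was called with either set of B6 WT replicates alone (adjusted p = 1.32e-05 and 0.00171 from limma). In BMDMs every library held 3.52 normalized counts or fewer, so the gene was not tested there and a difference was not detectable at this depth. Gm26779, the nearest tested gene on the other side of Gm15446 at 32.3 kb, had 80.2 to 99.8 in V3 RPE and 54.4 to 82.6 in B6 WT (log2 difference 0.45, adjusted p = 0.468 from limma).

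Zfp932, the near copy of Gm15446 and itself a zinc finger gene, lies in the same stretch of chromosome 5, from 109996521 to 110010411. In RPE it ran from 528 to 684 normalized counts in B6 WT and held 523, 581 and 608 in V3, a log2 difference of -0.04 (SE 0.16, adjusted p = 0.904 from limma; 0.07 and -0.15 from the first and the second set of B6 WT replicates), in the libraries in which Gm15446 had 1 or 2 reads. In BMDMs B6 WT held 87.1, 99.4 and 105 and V3 49.2, 53.3 and 29.7, with no overlap. This difference of -1.16 (SE 0.20, adjusted p = 0.0136 from limma) passed the adjusted p, as 1.17% of all genes did, but not the fold threshold. V1 and V2 BMDMs, at 91.1 to 122 and 95.9 to 107, overlapped with B6 WT. The difference between the tissues, tested in 1 edgeR model over all 30 libraries after the values had been seen, was -1.15 (adjusted p = 0.283 from edgeR over 12513 genes), and it failed the correction.

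Dynlt1b, which encodes a light chain of the motor protein dynein, was the neighbour called in BMDMs and lies 2.23 kb from Tmem181b-ps, on chromosome 17 from 6430112 to 6436296. The B6 WT BMDM libraries held 129, 134 and 142 normalized counts, the V1 libraries 141, 121 and 102, the V2 libraries 182, 175 and 237, and the V3 libraries 334, 429.6 and 341. All V3 libraries were above all others, and all V2 libraries were above those of B6 WT and V1. V3 was higher than B6 WT by 1.44 (SE 0.15, adjusted p = 0.000173 from limma). In RPE the B6 WT libraries ran from 91.7 to 142 and the V3 libraries held 233, 217 and 199, again without overlap, but the difference of 0.92 (SE 0.23, adjusted p = 0.363 from limma) was not called, nor were those of 0.82 and 1.02 from the first and the second set of B6 WT replicates. With the replicate number as a block the RPE difference was 0.74 (SE 0.23, adjusted p = 0.0303 from limma). That passed the adjusted p but not the fold threshold, in a fit that called many more genes. V2 RPE held 280.4, 231 and 129, so V2 replicate 3 was again the library inside the B6 WT range, as for Tmem181b-ps. V1 was lower than V2 by 0.95 in RPE (adjusted p = 0.194 from limma), and by 1.28 without V2 replicate 3 (adjusted p = 0.0462 from limma), where it was called. In BMDMs V1 was lower than V2 by 0.70 (adjusted p = 0.0703 from limma). The difference of the V3 effect between tissues was 0.48 (adjusted p = 0.792 from edgeR).

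**Figure D4:**
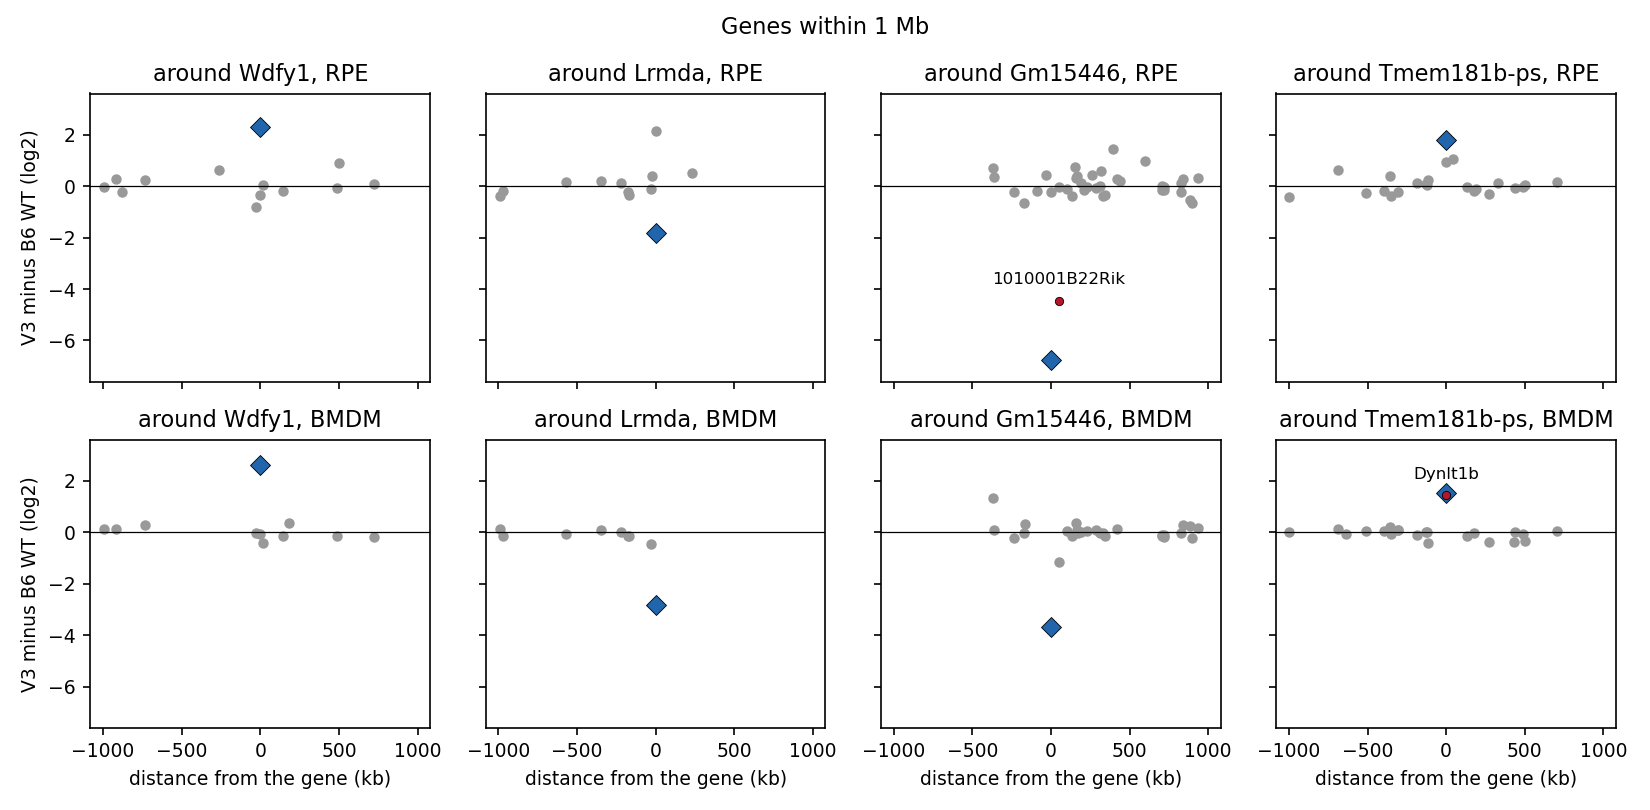
Difference of V3 from B6 WT in log2(normalized count + 1) for each tested gene within 1 Mb of a member, by its distance in kb from that gene, in RPE (upper row) and BMDMs (lower row). Blue diamonds are the members, red circles the called neighbours 1010001B22Rik (RPE) and Dynlt1b (BMDMs, 1.44, drawn on the diamond of Tmem181b-ps), and grey circles the genes not called.

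Other copies of the chromosome 17 genes were followed in the same way. Tmem181a, the intact paralog of Tmem181b-ps, held 850.0, 845 and 916 normalized counts in V3 RPE and 757 to 905 in B6 WT, and 828, 752 and 851 in V3 BMDMs beside 783 to 809 in B6 WT. Its differences were 0.07 (SE 0.11, adjusted p = 0.786 from limma) and 0.02 (SE 0.053, adjusted p = 0.895 from limma). Tmem181c-ps, a second pseudogene of the family, stayed under the filter and was not tested. It held 17.8, 17.5 and 26.2 in V3 RPE and at most 6.79 in any other RPE library, and in BMDMs 10.9, 4.26 and 5.62 in V3 and 2.45 to 3.91 in B6 WT. Dynlt1b matched Dynlt1c, Dynlt1f and Dynlt1a at 98.8 to 99.2% identity over 771 nt. V3 differed from B6 WT by 0.03 for Dynlt1a, -0.04 for Dynlt1c and -0.20 for Dynlt1f in RPE and by 0.02, -0.15 and -0.04 in BMDMs, with none called. The V3 and B6 WT ranges of Tmem181a overlapped in both tissues, and those of Tmem181c-ps did not.

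**Figure D5:**
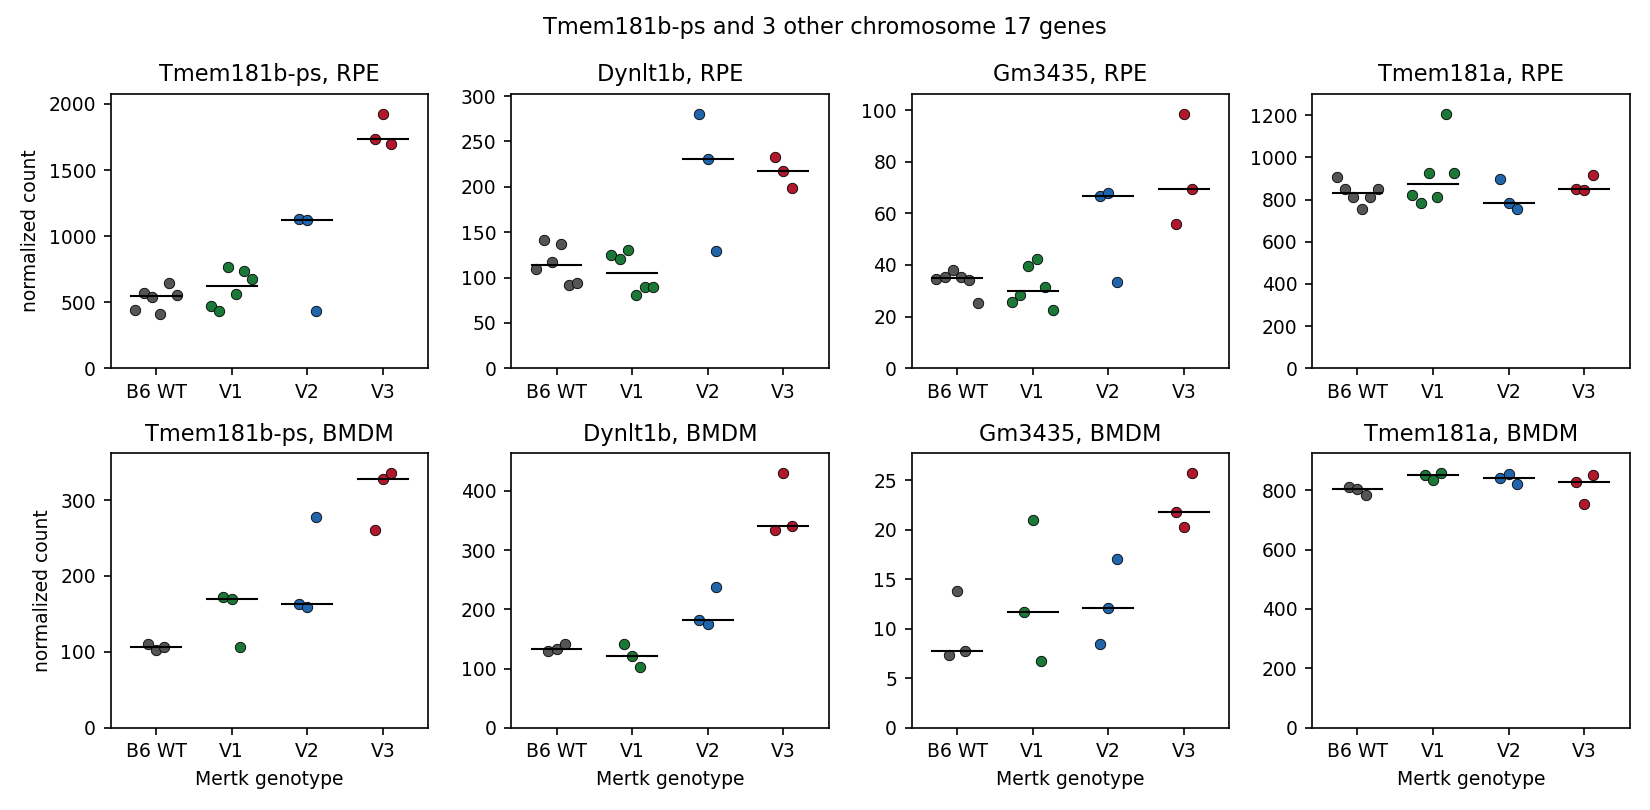
Normalized counts of Tmem181b-ps, Dynlt1b, Gm3435 and Tmem181a, all on chromosome 17, in each RPE library (upper row) and BMDM library (lower row) by Mertk genotype, with a bar at the group median and axes from 0. V2 replicate 3 is the lowest V2 RPE library for all 4 genes, and for Tmem181b-ps, Dynlt1b and Gm3435 it lies below the other two V2 libraries by a wide margin (for Gm3435, 33.5 beside 66.9 and 67.9).

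Annotated genes that overlap a member could add reads to it, and whether the counting used the strand is not given in the sources used here. Mrpl44, a mitochondrial ribosomal protein gene on the opposite strand, shares 126 nt with Wdfy1 and differed between V3 and B6 WT by -0.34 in RPE (adjusted p = 0.449 from limma) and -0.05 in BMDMs (adjusted p = 0.746 from limma), whereas Wdfy1 was higher. Of 7 small genes inside or across Lrmda, Gm47601, a sense intronic transcript, passed the filter in RPE, with a log2 difference of 2.13 (SE 0.63, adjusted p = 0.443 from limma), opposite in sign to Lrmda. Gm26808 shares 82 nt with Gm15446 on the opposite strand, at a mean of 13.0 normalized counts over RPE libraries, with a difference of -0.25 (adjusted p = 0.770 from limma). Gm26848, on the opposite strand, spans the whole 28499 nt of Tmem181b-ps and had means of 6.69 in RPE and 4.73 in BMDMs, far below the 825 and 191 of the pseudogene.

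The nearest tested genes on the remaining sides were not called. For Wdfy1 these were Ap1s3, a subunit of a clathrin adaptor complex 30.3 kb away (-0.82 in RPE, adjusted p = 0.474, and -0.02 in BMDMs, adjusted p = 0.967, from limma), and Serpine2, a protease inhibitor gene 18.1 kb away (0.03 and -0.43, adjusted p = 0.958 and 0.799 from limma). For Lrmda they were C130012C08Rik, 23.6 kb away (0.38 in RPE, adjusted p = 0.592 from limma), and the potassium channel gene Kcnma1, 233 kb away (0.50 in RPE with an SE of 1.04, adjusted p = 0.830 from limma), both under the filter in BMDMs. Gm2808, 44.8 kb from Tmem181b-ps, held 19.0, 20.0 and 23.1 in V3 RPE and 5.24 to 14.8 in B6 WT, without overlap (1.06, SE 0.37, adjusted p = 0.449 from limma), and was under the filter in BMDMs.

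Further genes were taken from lists of the pathways and families of the members and from a list of 4 genes known to differ between C57BL/6 substrains. Together these were 65 genes besides the members, of which 59 were tested in RPE and 50 in BMDMs. In V3 against B6 WT 0 of them were called in either tissue by limma, edgeR or DESeq2, with 3 of 59 and 9 of 50 at an unadjusted p under 0.05, where all genes had 11.1% in RPE and 15.9% in BMDMs. The called share over all genes was 0.0637% and 0.156%. The median difference was -0.06 in RPE and 0.02 in BMDMs, beside -0.01 and 0.00 over all genes tested. In V1 against V2 0 were called as well, with 7 of 59 and 6 of 50 at an unadjusted p under 0.05 beside 9.72% and 7.47% of all genes. Bloc1s6, a subunit of a complex for lysosome-related organelles, passed the adjusted p but not the fold threshold in BMDMs (0.65, adjusted p = 0.000129 from limma, a limit that 0.365% of all genes passed).

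By role, the 3 relatives of Wdfy1 (Wdfy2, Wdfy3 and Wdfy4) differed between V3 and B6 WT by -0.21 to 0.07 in RPE and -0.001 to 0.13 in BMDMs. The receptors, adaptors and kinases of the TLR3 and TLR4 pathway through TRIF (12 tested in RPE, 13 in BMDMs) ranged from -0.54 to 0.23 and from -0.29 to 0.78. Other endosomal proteins that bind or make PI3P (7 tested in both) ranged from -0.13 to 0.13 and from -0.08 to 0.21, the latter for Zfyve1 (adjusted p = 0.0750 from limma). The 23 genes of melanosome biogenesis and melanin, the setting in which Lrmda is known, were all tested in RPE and had a median difference of -0.14, with a range of -0.49 to 0.29. In BMDMs 16 of them were tested, with a median of 0.05. The cofactors of KRAB zinc finger proteins (10 and 9 tested) ranged from -0.09 to 0.28 and from -0.22 to 0.19, the lowest for Cbx5 in BMDMs (adjusted p = 0.0569 from limma). In the Tmem181 family 1 gene besides the pseudogene was tested, Tmem181a. Genes known to differ between C57BL/6J and C57BL/6N mice (Nnt, Crb1, Cyfip2 and Nlrp12; 3 tested in RPE, 1 in BMDMs) ranged from -1.31 for Crb1, a gene of retinal cell polarity (adjusted p = 0.452 from limma), to 0.85 for Nnt in RPE. Nnt, which encodes a mitochondrial transhydrogenase, held 15.6, 23.7 and 15.4 in V3 RPE and 3.70 to 20.4 in B6 WT, with overlap (adjusted p = 0.449 from limma), and did not pass the filter in BMDMs. A gene can differ between substrains without a change in its count, so these values do not check the substrain of a line.

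To find the genes most like the members, each gene tested in both tissues (12513) was correlated with each member over the 18 RPE and the 12 BMDM libraries, and genes were ranked by the weaker of the 2 values. The libraries share genotype and depth, so these correlations are a description. The members were chosen because V3 differed at each of them in both tissues, so strong correlations among them were favoured by that choice. Of the 3 genes with the strongest positive and the 3 with the strongest negative correlation for each of the 4 members, 24 selections in all, 15 genes were distinct and 4 of them were the members themselves. Wdfy1 was most like Tmem181b-ps (Pearson r 0.866 in RPE and 0.814 in BMDMs), AC149090.1 (0.782 and 0.808) and Rbm5 (0.774 and 0.804), and most opposite to Lrmda (-0.917 and -0.984), Gm15446 (-0.901 and -0.915) and Strap (-0.819 and -0.922). Lrmda was most like Cnbp (0.859 and 0.844), 1110038F14Rik (0.842 and 0.901) and Strap (0.832 and 0.896). Gm15446 was most like Lrmda (0.781 and 0.942), Tipin (0.740 and 0.710) and 1110038F14Rik (0.668 and 0.882). Tmem181b-ps was most like Gm3435 (0.829 and 0.814), Wdfy1 and AC149090.1 (0.813 and 0.799), a gene of an unplaced scaffold. The remaining names were Prr12 and Zfp939 (opposite to Lrmda), Gm28438 (opposite to Gm15446) and Nkiras2 and Tipin (opposite to Tmem181b-ps). Ranking by Spearman's rho gave 0 of the same 24 selections.

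Strap, whose product is part of the complex that loads splicing factors, was chosen for its correlation with members that differ in V3, so its values, like those of Gm3435, are a description. It held 2305, 2058 and 2375 normalized counts in V3 RPE and 2494 to 3070.3 in B6 WT, and 2486, 2492 and 2622 in V3 BMDMs beside 3006 to 3096. The V3 ranges lay below those of B6 WT in both tissues, with log2 differences of -0.32 in RPE and -0.26 in BMDMs that were much smaller than those of the members. Gm3435, also on chromosome 17, held 55.8, 98.5 and 69.4 in V3 RPE, 25.1 to 37.9 in B6 WT, 22.5 to 42.3 in V1 and 66.9, 67.9 and 33.5 in V2. Its V3 libraries did not overlap with B6 WT in either tissue, with 21.8, 20.3 and 25.7 in V3 BMDMs and 7.40 to 13.9 in B6 WT. The log2 differences were 1.10 in RPE and 1.19 in BMDMs. Gm3435 matched Ermard at 99.8% identity over 1324 nt, so its counts carry the same uncertainty as those of Tmem181b-ps. AC149090.1, chosen in the same way, held 7332 to 21155 normalized counts in V3 RPE and 1111 to 4200 in B6 WT. In BMDMs AC149090.1 held 4530 to 5513 in V3 and 2576 to 2967 in B6 WT. Its V1 and V2 libraries reached at most 4767 in RPE and 4335 in BMDMs, below every V3 library of the tissue.

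Without the V3 libraries some correlations among members turned in sign and others kept it. Over the 15 RPE and 9 BMDM libraries of the other genotypes, Wdfy1 and Gm15446 had r of 0.863 in RPE, against -0.901 with V3, and -0.104 in BMDMs. Lrmda and Gm15446 had -0.866 and -0.330 without V3, also opposite in sign to the 0.781 and 0.942 with V3. Wdfy1 and Lrmda stayed opposed without V3 (-0.750 and -0.617), and Wdfy1 and Tmem181b-ps stayed positive (0.512 and 0.566). Gm15446 and Tmem181b-ps had 0.414 in RPE and -0.826 in BMDMs, and Lrmda and Tmem181b-ps -0.044 and 0.102. Beside this, B6 WT and V1 replicates 4 to 6 held more Wdfy1 (363 to 584) than replicates 1 to 3 (295 to 357) and more Gm15446 (274 to 584 against 196 to 304), and less Lrmda (118 to 252 against 230.3 to 312) in RPE. The part of these sets in the correlations was not tested.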

How the data were processed

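RNA was measured in 18 RPE and 12 BMDM libraries, grouped by the tissue and genotype in their labels. Reads were trimmed (btrim) and aligned to GRCm38 (STAR), and the authors deposited 1 table of signal for each tissue, in which gene counts are divided by the DESeq2 size factor of the library (normalized counts). Versions, the read counter and the annotation are not given in the sources used here. The values were whole multiples of 1 read in every library (tolerance 0.01), so reads were recovered. The tables hold 55573 genes, 55480 of them in GENCODE release 21, and 0 sample columns were left unused.

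The 4 genotypes of a tissue were fitted in 1 limma 3.58.1 model (R 4.3.3, trend) on log2(normalized count + 1) for genes with a mean of at least 10, with Benjamini-Hochberg adjustment over all of them. A called gene passed both an adjusted p of 0.05 and a log2 difference of 1.25 (2.38-fold), the thresholds of the study, which used DESeq2. Normalized counts are not raw counts, so edgeR 4.0.16 and DESeq2 1.42.0 on recovered reads were alternatives. BLAST+ 2.17.0 gave near-identical transcripts (at least 97% identity over 300 nt). On simulated data with 200 changed genes limma recovered 197 in RPE and 195 in BMDMs for V3 against B6 WT (5 and 2 other calls), and 195 and 191 for V1 against V2 (0 and 2). The simulated data had the same dispersion for every gene, changes beyond the fold threshold and no difference between replicate sets. Recovery of smaller changes, or in RPE libraries with such sets, was therefore not measured. Other alternatives were a pseudocount of 5, no filter, a fit of only the groups compared, a block for replicate number, leaving out each library, RPE replicates 1 to 3 or 4 to 6 only, the adjusted p alone, windows of 0.5 and 2 Mb, 95% identity over 200 nt, and Spearman's rho. Libraries of a group are labelled as biological replicates.

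The text names the 4 members, Mertk, the genes of the lists (Wdfy family, TLR3 and TLR4 to TRIF pathway, PI3P binding, melanosome and melanin, KRAB zinc finger cofactors, Tmem181 family, substrain genes), called or nearest neighbours, and for each member the 3 most positively and 3 most negatively correlated genes. Genes outside this rule (near-identical copies, overlapping genes) were chosen after their values were seen. Members and lists were chosen with earlier results of these data known.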

Additional observations from a re-analysis of the deposited data

Results flagged for a closer look

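Among 48 groups of 6 libraries examined for a single distant library, 2 stood out by Dixon's 95% criterion (a gap above 0.625 of the range), and chance gives about 1 in 20. Gm3435, the chromosome 17 gene most like Tmem181b-ps, was lowest in B6 WT RPE replicate 6 at 25.1 normalized counts, with the other 5 libraries at 34.1 to 37.9. Tmem181a, the intact relative of Tmem181b-ps, was highest in V1 RPE replicate 5 at 1206, with the other 5 at 785 to 927. Neither library is a V3 library, and no member itself stood out in a group of 6.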

How the results depend on the processing

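The difference of V3 from B6 WT for the 4 genes kept its sign under all 116 combinations of gene, tissue and alternative, and 110 of them moved by less than 1 SD between replicates. The values ranged from 2.09 to 2.55 for Wdfy1, -2.14 to -1.59 for Lrmda, -7.42 to -5.45 for Gm15446 and 1.71 to 1.86 for Tmem181b-ps in RPE, and from 2.57 to 2.67, -2.95 to -2.58, -4.51 to -2.76 and 1.45 to 1.63 in BMDMs. Between V1 and V2 the 4 genes stayed uncalled under every alternative (0 to 0 with a library left out). The sign of this difference turned for Wdfy1 in RPE with V1 replicates 1 to 3 only (-0.28) and over the fits that leave out 1 library (-0.056 to 0.16, negative without V1 replicate 5 or 6 or V2 replicate 3), for Wdfy1 in BMDMs (-0.0042 to 0.19, negative without V2 replicate 2) and for Gm15446 in RPE with V1 replicates 1 to 3 only (-0.21). The cause was not tested.

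Called neighbours in V3 against B6 WT became 2 without a filter in each tissue, 2 in BMDMs by the adjusted p alone, and 1 to 2 in BMDMs with a library left out (2 without B6 WT replicate 3, V3 replicate 1 or V3 replicate 2). In V1 against V2 in RPE they became 0 to 1 (Dynlt1b without V2 replicate 3). Over all genes, the 12 calls of V3 against B6 WT in RPE became 4 with B6 WT replicates 4 to 6 only, 28 with DESeq2, 6 with only the groups compared, 34 without a filter and 5 to 13 with a library left out (5 without V3 replicate 3, 6 without V3 replicate 2). The 21 in BMDMs became 157 by the adjusted p alone, 35 with only the groups compared and 16 to 41 with a library left out (41 without B6 WT replicate 3). Between V1 and V2, the 12 in RPE became 22 by the adjusted p alone, 31 with DESeq2, 83 with V1 replicates 4 to 6 only, 19 without a filter and 9 to 13 with a library left out, and the 18 in BMDMs became 49 by the adjusted p alone and 15 to 21. Spearman's rho gave 0 of the 24 selections by Pearson's r.

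With the replicate number as a block, calls in RPE became 1270 for V3 against B6 WT and 240 for V1 against V2, with 5 called neighbours, and V1 minus V2 turned to -0.21 for Wdfy1 and -0.086 for Gm15446. Same-numbered libraries did not all deviate together (median correlation 0.15 over 21 RPE pairs, from -0.46 to 0.72, and -0.093 over 18 BMDM pairs, from -0.30 to 0.36), so the number was not taken to pair libraries. In RPE it does carry the difference between replicates 1 to 3 and 4 to 6. The main model has no term for that difference and leaves it in the spread between libraries. RPE genes not called by the main model can therefore be called with the block. With V1 replicates 1 to 3 only the same 2 signs turned.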
